A study of Rattus norvegicus with 138 samples.

Results

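Kcnip1, Kcnip2, Kcnip3, Kcnip4, Kcnd2, Kcnd3, Dpp6 and Dpp10 encode the KChIP proteins, the pore and the accessory subunits of one class of A-type potassium channel. These 8 genes were chosen by the level of Kcnip3, lower, and of Kcnip2, higher, in the SHR than in the WKY rat in these data. The strain differences of these 2 genes are therefore given as descriptions with no test. Of the 8 genes, 7 had a row among the 32883 genes of the count tables, and all 7 passed the filter on low expression in each of 3 brainstem regions. Kcnd2 was not analysed here. Kcnip3 is ENSRNOG00000014152 and Kcnip2 ENSRNOG00000050450 in the deposited tables.

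A-type potassium current opens and inactivates quickly below the firing threshold, so it delays the first spike and spaces the spikes that follow. The Kv4 pore subunits encoded by the Kcnd genes carry this current in the cell body and dendrites of many neurons. The KChIP proteins are small calcium-binding proteins of the neuronal calcium sensor family, which bind the inner end of the pore subunit, bring more channels to the membrane and change how fast they inactivate and recover. KChIP3, the product of Kcnip3, is also known as DREAM or calsenilin, a repressor that binds DNA at the downstream regulatory element. The products of Dpp6 and Dpp10 resemble dipeptidyl peptidases without their enzyme activity and speed the gating of the same channels.

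RNA was sequenced from tissue punches of the nucleus tractus solitarius (NTS), the caudal ventrolateral medulla (CVLM) and the rostral ventrolateral medulla (RVLM) of 46 female rats, 1 library per region and rat. The NTS receives the baroreceptor afferents, the CVLM inhibits the RVLM, and the RVLM drives sympathetic outflow to blood vessels. The spontaneously hypertensive rat (SHR) is an inbred model that becomes hypertensive with age, and the normotensive WKY rat is its usual control. No rat was treated, and the strains differ across the whole genome, so no single allele is set apart by the comparison. Of the WKY rats 5, 4, 3, 3 and 3 were aged 8, 10, 12, 16 or 24 wk, and of the SHRs 5, 5, 6, 6 and 6 had the same ages. The study takes these ages to run from before hypertension to its chronic stage, and it recorded blood pressure at 12 and 24 wk. The punches from both sides of a rat were pooled.

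Libraries held 5904570 to 17889406 counts, with a median of 10143018. Levels are given in CPM, the counts scaled to a common library size, with library sizes adjusted by the trimmed mean of M values (TMM) over all libraries. Genes were tested with edgeR's quasi-likelihood test and called at a Benjamini-Hochberg adjusted p under 0.05 over all genes of the comparison. Library names end in 1 or 2, a number whose meaning is not given in the sources used here. Number 2 covers every 10 wk library and 3 of the 5 WKY rats at 8 wk (replicates 3, 4 and 5). It also covers 1 SHR each at 12 and 24 wk (replicate 6). Within 10 wk the age and the number therefore cannot be told apart. Fits with the number as a term rest on the number-2 rats of the other ages. Fits of the number-1 libraries alone leave out 10 wk. In the CVLM, 1 WKY rat and 1 SHR titled 8 wk carry 10 wk in their age label and were kept at 8 wk. The RVLM libraries were rich in motor neuron genes, with a median Chat (acetylcholine synthesis) of 243 CPM against 61.0 in the NTS and 18.5 in the CVLM. Dbh, the noradrenaline-making enzyme of catecholamine neurons, had medians of 67.6, 85.0 and 9.55 CPM in the NTS, CVLM and RVLM.

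The 250 bases upstream of the RefSeq start are shown for Kcnip3 and Kcnip2, the members whose levels differed most between the strains and in opposite directions. They come from the RefSeq promoter table for assembly GRCr8, whose reference animal is neither SHR nor WKY, so they show no strain difference. Both genes lie on the minus strand, Kcnip3 at chr3:135195411-135195660 and Kcnip2 at chr1:254613899-254614148. Each sequence reads 5′ to 3′ along the gene and ends at the base before the start, and capitals mark GTCA or GGGCGG on either strand (TGAC is GTCA read on the opposite strand).
Kcnip3: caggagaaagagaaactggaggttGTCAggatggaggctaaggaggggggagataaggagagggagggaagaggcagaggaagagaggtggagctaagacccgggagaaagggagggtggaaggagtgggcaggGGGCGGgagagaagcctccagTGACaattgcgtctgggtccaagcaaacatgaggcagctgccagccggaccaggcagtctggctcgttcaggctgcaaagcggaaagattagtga
Kcnip2: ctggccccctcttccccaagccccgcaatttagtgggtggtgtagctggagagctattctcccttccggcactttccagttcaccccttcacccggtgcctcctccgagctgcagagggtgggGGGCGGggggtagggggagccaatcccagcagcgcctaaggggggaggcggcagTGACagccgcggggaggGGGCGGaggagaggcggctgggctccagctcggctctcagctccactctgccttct

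GTCA is the core of the downstream regulatory element to which KChIP3 binds. The Kcnip3 window held it at position -226 on the gene strand and at -95 on the opposite strand, and the Kcnip2 window held it at -73 on the opposite strand. These 4 letters occurred in 80.7% of the 33469 promoter windows of 250 bases in the table, so the match is common. The GC box GGGCGG, present in 30.5% of windows, stood at -116 in Kcnip3 and at -127 and -56 in Kcnip2. Neither window held the cAMP response element TGACGTCA (1.59% of windows), which contains GTCA, or the TATA box TATAAA (12.9% of windows). Both strands were searched, and a match is a description of letters only. Of the 8 genes, 7 matched the table by symbol, and Kcnip4 did not.

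Kcnip3 was lower in every SHR than in every WKY rat of the same age in every region. In the NTS at 8 wk, the WKY rats had 28.7, 24.8, 24.2, 20.9 and 25.2 CPM and the SHRs 14.98, 9.78, 12.2, 12.7 and 12.9 CPM. At 10 wk, the NTS levels were 22.5, 25.5, 23.0 and 22.7 CPM in the WKY rats and 8.04, 11.3, 15.2, 8.50 and 9.84 CPM in the SHRs. The highest SHR at either age was below the lowest WKY rat. By 12 wk the NTS of the WKY rats gave 26.5, 29.1 and 23.7 CPM, against 9.12 to 16.1 CPM with a median of 10.6 in the SHRs. The 16 wk NTS gave 34.3, 27.5 and 27.1 CPM in the WKY rats and 9.88 to 14.9 CPM with a median of 11.5 in the SHRs. At 24 wk, WKY rats had 19.4, 18.2 and 26.3 CPM in the NTS and SHRs had 8.69 to 11.9 CPM with a median of 10.5. The gap was therefore present at 8 wk, an age that the study considers prehypertensive, and was still present at the oldest age.

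In the CVLM, Kcnip3 levels were higher in both strains and the groups again stood apart. WKY rats at 8 wk had 36.4, 42.0, 34.5, 35.7 and 39.5 CPM in the CVLM, and SHRs had 20.1, 16.4, 14.9, 15.4 and 16.4 CPM. Those of 10 wk had 43.2, 36.4, 37.7 and 39.5 CPM, with 16.0, 17.1, 15.8, 15.4 and 14.0 CPM in the SHRs. The 12 wk CVLM gave 40.3, 38.0 and 28.6 CPM in the WKY rats and 13.7 to 23.9 CPM with a median of 17.05 in the SHRs. No SHR reached the lowest WKY rat of its age. For 16 wk the WKY levels were 46.2, 33.1 and 36.3 CPM and the SHR levels 10.8 to 19.2 CPM with a median of 17.8. At 24 wk the WKY levels were lowest, 29.9, 25.7 and 23.4 CPM, while the SHRs had 13.1 to 18.9 CPM with a median of 16.2. Over all ages together, the CVLM groups overlapped by 1 SHR of 12 wk (23.9 CPM) and 1 WKY rat of 24 wk (23.4 CPM).

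The widest gap was in the RVLM. At 8 wk its Kcnip3 levels were 54.8, 45.9, 37.5, 44.8 and 60.4 CPM in the WKY rats and 19.5, 16.1, 24.0, 22.04 and 13.4 CPM in the SHRs. The 10 wk WKY rats had 55.9, 68.2, 42.9 and 45.2 CPM in the RVLM and the SHRs 14.5, 21.6, 17.8, 20.7 and 25.0 CPM. Again the ranges did not touch. WKY rats of 12 wk had 54.2, 70.8 and 50.7 CPM, and SHRs 15.9 to 25.5 CPM with a median of 21.6. Those of 16 wk had 44.8, 54.4 and 48.9 CPM, and SHRs 17.2 to 22.2 CPM with a median of 20.2. The oldest WKY rats had 46.6, 35.6 and 58.0 CPM, and SHRs 14.2 to 21.8 CPM with a median of 20.6. With all ages together, the highest SHR in the RVLM (25.5 CPM) was below the lowest WKY rat (35.6 CPM), as in the NTS (16.1 against 18.2 CPM).

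**Figure D1:**
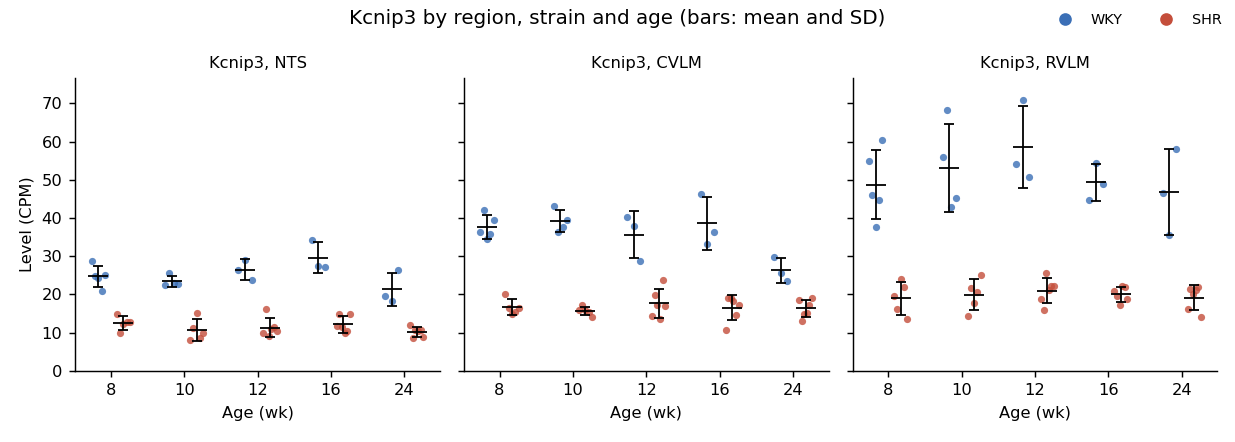
Kcnip3 level in CPM (vertical axis) against age in wk (horizontal axis) in the NTS, CVLM and RVLM, 1 point per rat, with bars for the mean and SD of each group. The SHR points lie below the WKY points of the same age in all 15 pairs of region and age.

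The groups did not overlap in 15 of 15 pairs of region and age for Kcnip3. Among all genes tested, the strains were apart at each of the 5 ages with SHRs lower in 0.558%, 0.626% and 0.522% in the NTS, CVLM and RVLM, shares from which nothing is read because this difference chose the gene. The mean SHR level was 41.1% to 50.5% of the mean WKY level of the same age in the NTS, with 40.0% to 62.0% for the CVLM and 35.7% to 41.0% for the RVLM. The log2 fold change averaged over ages was -1.14 (SE 0.07), -1.10 (SE 0.06) and -1.37 (SE 0.08) in the NTS, CVLM and RVLM. By single age it ran from -1.29 to -1.02 (NTS), from -1.32 to -0.72 (CVLM) and from -1.48 to -1.28 (RVLM). The genotype at Kcnip3, and whether reads from either strain map less well to the rn6 assembly there, was not tested.

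Kcnip2 cannot be read from its own row alone. Its expected counts and those of a second rat gene model, LOC100911951, were both fractional (more than 0.005 from a whole number) in the same 45, 43 and 41 of 46 libraries in the NTS, CVLM and RVLM, while their sum was whole in every library. The counts of the other 6 members were whole in every library. Reads were thus split between these 2 rows by the authors' counting, and Kcnip2 took from 14.98% to 85.8% of the sum in the NTS and from 0% to 100% in the CVLM and RVLM. Its median share was 43.8% in the WKY rats and 36.0% in the SHRs in the NTS, 46.6% and 42.8% in the CVLM, and 30.3% and 37.1% in the RVLM. The split added spread, with a pooled SD within groups, on the scale of log2(CPM + 0.5), of 0.45, 0.99 and 1.16 for the Kcnip2 row against 0.15, 0.19 and 0.23 for the sum in the NTS, CVLM and RVLM. The row and the sum are both given below. How much of the sum is Kcnip2 transcript cannot be told apart in these counts.

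The Kcnip2 row was at 11.98 ± 4.49 CPM (SD, n = 18) in the WKY rats and 17.7 ± 6.34 CPM (n = 28) in the SHRs in the NTS. In the CVLM it was 7.71 ± 5.80 against 13.8 ± 5.01 CPM, with 2 WKY rats at 0. In the RVLM it was 3.22 ± 2.42 against 11.03 ± 6.29 CPM, with 2 WKY rats at 0 whose summed counts were not 0. The groups of the row overlapped in 10 of 15 pairs of region and age. Its mean log2 fold change was 0.66 (SE 0.14), 0.95 (SE 0.29) and 1.73 (SE 0.37) in the NTS, CVLM and RVLM.

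The summed level of Kcnip2 and LOC100911951 separated the strains in every pair of region and age, with every SHR higher. In the NTS at 8 wk the sum was 25.3, 28.7, 24.0, 31.9 and 34.3 CPM in the WKY rats and 56.8, 43.2, 52.4, 43.7 and 46.2 CPM in the SHRs. At 10 wk the NTS sum was 28.8, 32.9, 29.6 and 28.7 CPM against 42.3, 45.9, 42.7, 48.6 and 48.4 CPM. The 12 wk sum was 29.8, 27.0 and 24.8 CPM in the WKY rats and 34.3 to 51.1 CPM with a median of 42.4 in the SHRs. All WKY values stayed below all SHR values of the same age. At 16 wk the NTS sum was 21.4, 25.0 and 30.9 CPM against 41.0 to 47.9 CPM with a median of 42.0. At 24 wk it was 27.5, 26.0 and 25.6 CPM against 43.2 to 55.1 CPM with a median of 46.9. The ranges over all ages nearly touched in the NTS, where the highest WKY rat had 34.25 CPM and the lowest SHR 34.33 CPM.

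WKY rats had lower sums in the CVLM than in the NTS. Their CVLM sums at 8 wk were 12.5, 22.7, 16.4, 17.005 and 16.7 CPM, and those of the SHRs were 35.4, 32.4, 31.9, 31.9 and 34.6 CPM. The CVLM sums at 10 wk were 20.7, 17.7, 16.6 and 26.4 CPM against 34.6, 28.6, 29.6, 33.6 and 36.7 CPM. The CVLM sums at 12 wk were 14.3, 15.7 and 15.3 CPM against 26.8 to 39.6 CPM with a median of 33.0. SHRs were again the higher strain without overlap. The 16 wk values were 12.3, 13.8 and 9.43 CPM against 28.4 to 31.4 CPM with a median of 29.3. The 24 wk values were 17.2, 15.04 and 11.3 CPM against 30.3 to 40.1 CPM with a median of 35.4. The highest CVLM sum of any WKY rat, 26.4 CPM, was below the lowest of any SHR, 26.8 CPM.

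RVLM sums were the lowest in the WKY rats. At 8 wk they were 8.11, 9.45, 11.02, 8.57 and 7.54 CPM, and the SHRs had 27.0, 24.6, 24.9, 27.3 and 28.3 CPM. At 10 wk they were 8.12, 6.22, 6.53 and 8.63 CPM against 24.1, 26.1, 27.3, 21.4 and 27.0 CPM. By 12 wk they were 8.95, 8.53 and 10.1 CPM against 21.5 to 30.6 CPM with a median of 26.9. No WKY rat reached the lowest SHR of its age. At 16 wk the RVLM sums were 13.7, 10.9 and 15.9 CPM against 22.2 to 35.3 CPM with a median of 30.9. At 24 wk they were 5.49, 11.2 and 10.1 CPM against 21.6 to 34.2 CPM with a median of 27.1. Over all ages the highest WKY sum was 15.9 CPM and the lowest SHR sum 21.4 CPM.

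**Figure D2:**
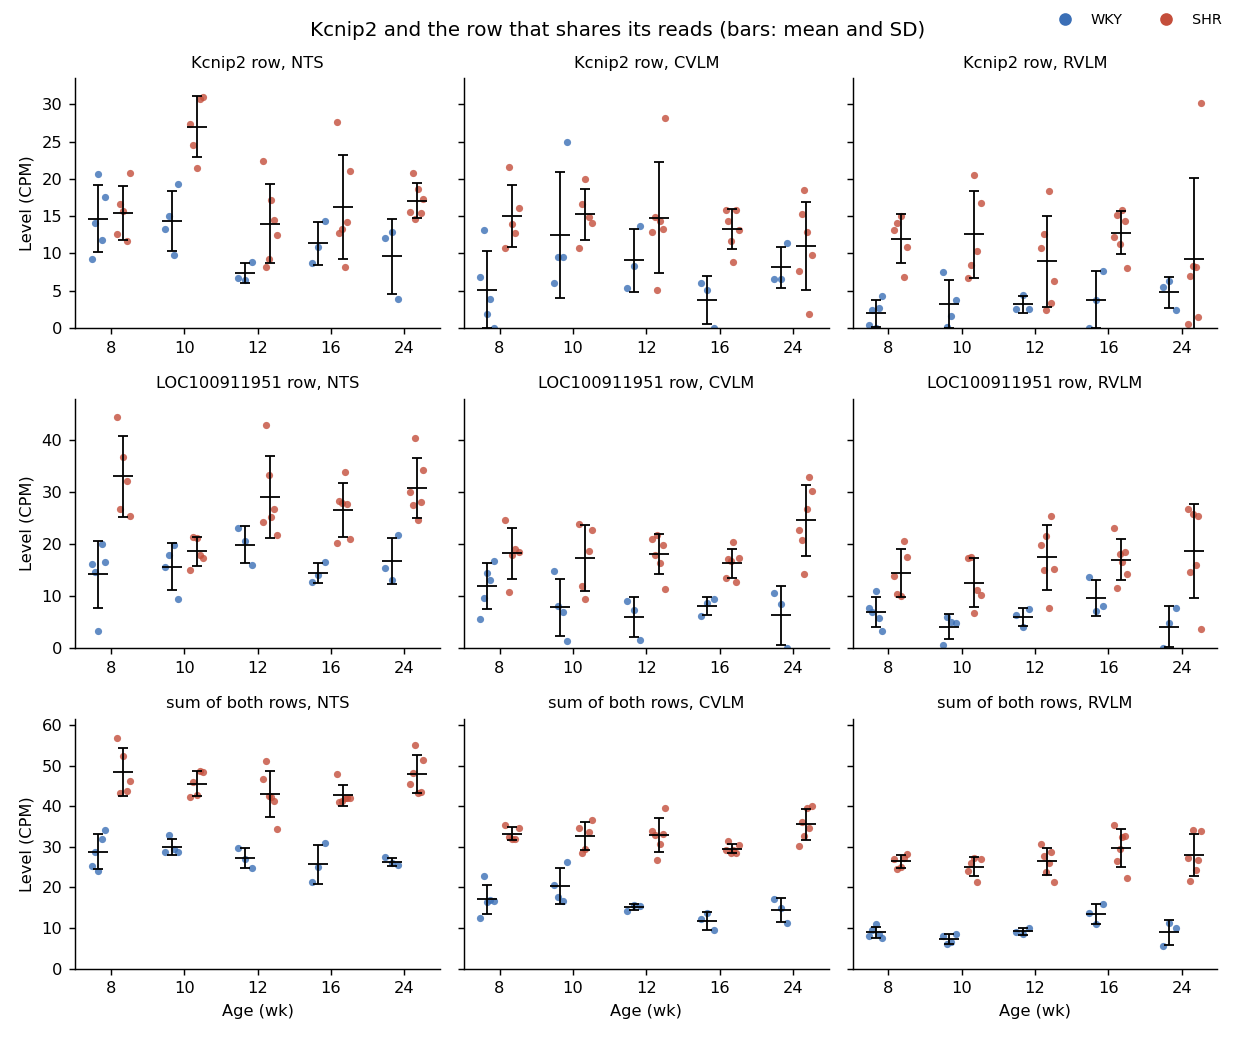
Levels in CPM (vertical axes) against age in wk (horizontal axes) for the Kcnip2 row, the LOC100911951 row and their sum in the NTS, CVLM and RVLM, 1 point per rat, with bars for the mean and SD of each group. The single rows overlap between strains at many ages, and the sum does not overlap at any.

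The sum did not overlap between strains in 15 of 15 pairs, against 5 of 15 for the Kcnip2 row and 8 of 15 for the LOC100911951 row. The share of all genes apart in a single pair was not counted, so nothing is read from the counts of the 2 rows. Genes that were higher in SHRs without overlap at each of the 5 ages made up 0.486%, 0.626% and 0.537% of all genes tested in the NTS, CVLM and RVLM, and nothing is read from these shares because the direction of Kcnip2 chose the set. The mean SHR sum was 1.52 to 1.81 times the WKY mean of the same age in the NTS, with 1.60 to 2.50 times for the CVLM and 2.21 to 3.41 times for the RVLM. The log2 fold change of the sum averaged over ages was 0.73 (SE 0.05), 1.06 (SE 0.07) and 1.53 (SE 0.08) in the NTS, CVLM and RVLM.

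These are levels in whole punches, so fewer cells of a type and less RNA per cell cannot be told apart. Of 7 neuron markers, edgeR called 0 between the strains (mean over ages) in each region, with 1 marker in each region at an unadjusted p under 0.05, and DESeq2 called 0, 0 and 1 in the NTS, CVLM and RVLM. Of all genes tested, edgeR called 11.2%, 12.3% and 10.8% in the NTS, CVLM and RVLM (5.51%, 7.0% and 4.98% lower in SHRs). The marker lists are short, so nothing is read from their counts. The summed neuron markers ran from 5454 to 9304 CPM in WKY rats and from 5973 to 8453 CPM in SHRs in the NTS, from 7680 to 14480.0 and from 8160.0 to 13306 CPM in the CVLM, and from 11658 to 29185 and from 11527 to 28547 CPM in the RVLM. No neuron marker was at 0 in any library. Oligodendrocyte markers were called lower in SHRs for 1 of 6 in the NTS (Mobp), 4 of 6 in the CVLM (Mog, Mbp, Cnp and Mobp) and 3 of 6 in the RVLM (Mog, Cnp and Mobp). These 6 markers had median log2 fold changes of 0.07, -0.19 and -0.14 in the NTS, CVLM and RVLM. Their summed level ran from 18680 to 43176 CPM in WKY rats and from 19910.3 to 47962 CPM in SHRs in the NTS, and the groups overlapped in the CVLM and RVLM as well. Tmem119, a microglial gene, was called lower in all 3 regions, and of the other 4 microglial markers only Aif1 was called, lower in the CVLM. Of 6 astrocyte markers, Aldh1l1 was called higher in the RVLM (0.36, SE 0.08, adjusted p = 0.0015) and 0 were called in the NTS and CVLM. Of the ependymal markers, genes of ciliated cells that line the ventricle, 2 of 3 were called lower in the NTS, Ccdc153 at -1.77 (SE 0.31, adjusted p = 4.1e-05) and Dynlrb2 at -0.80 (SE 0.25, adjusted p = 0.025). Dynlrb2 was also called lower in the RVLM (-0.74, SE 0.21, adjusted p = 0.012), where it was the marker tested. The summed ependymal markers ran from 2.65 to 60.7 CPM in WKY rats and from 0.828 to 20.2 CPM in SHRs in the NTS. The part of these markers in the differences of Kcnip3 and Kcnip2 was not tested.

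Choroid plexus genes (Ttr, Folr1, Kl and Clic6) summed to more than 20 CPM in 5 of 18 WKY libraries of the NTS (101 to 4362 CPM) and 3 of 18 of the CVLM (23.3 to 197 CPM), and in no SHR library. Ttr, the transthyretin gene, was at 0 in 9 NTS, 19 CVLM and 11 RVLM libraries. Without those 5 and 3 libraries, a check chosen after seeing the data, the log2 fold change of Kcnip3 was -1.15 (SE 0.09) in the NTS and -1.08 (SE 0.07) in the CVLM, and that of the Kcnip2 row was 0.72 (SE 0.18) and 1.19 (SE 0.29).

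Kcnip1 encodes the KChIP1 protein, found in many inhibitory neurons. It was called higher in SHRs in the RVLM and not called in the NTS or CVLM. In the RVLM at 8 wk it was 46.8, 61.4, 51.2, 59.3 and 59.5 CPM in the WKY rats and 68.8, 50.4, 46.1, 52.6 and 57.4 CPM in the SHRs, which overlapped fully. At 10 wk it was 57.3, 51.3, 62.0 and 58.9 CPM against 63.4, 57.1, 66.5, 77.3 and 64.4 CPM. The 12, 16 and 24 wk WKY rats had 47.6, 44.5 and 42.7 CPM, then 38.4, 49.1 and 31.0 CPM, then 42.2, 49.5 and 32.1 CPM. The SHRs of those ages had medians of 56.3, 48.2 and 51.3 CPM, with ranges of 46.5 to 65.4, 36.7 to 62.5 and 41.9 to 58.1 CPM. Groups overlapped at every age in the RVLM, and SHR medians were the higher from 10 wk on.

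The mean log2 fold change of Kcnip1 was 0.22 (SE 0.07) in the RVLM, adjusted p = 0.021. It was 0.18 (SE 0.07, adjusted p = 0.075) in the NTS and -0.13 (SE 0.07, adjusted p = 0.29) in the CVLM. The RVLM call was lost without WKY replicate 3 of 16 wk (adjusted p = 0.056) or of 24 wk (adjusted p = 0.069). It was also lost in the number-1 libraries alone, a mean over ages without 10 wk (log2 fold change 0.21, adjusted p = 0.19). In the NTS it was the reverse, since Kcnip1 was called with the library-name number as a term (0.20, adjusted p = 0.043). It was called there too in the number-1 libraries alone, again without 10 wk (0.32, adjusted p = 0.0022). It was also called there without WKY replicate 5 of 8 wk, 2 of 10 wk or 3 of 12 wk, or SHR replicate 1 of 8 wk (adjusted p = 0.018 to 0.049). At 24 wk the NTS groups of Kcnip1 stood apart, with 48.3, 55.8 and 52.0 CPM in the WKY rats and 65.4 to 76.1 CPM in the SHRs. By edgeR Kcnip1 was called at no single age in the NTS (lowest adjusted p = 0.17). The share of all genes apart at a single age was not counted, so nothing is read from this gap. NTS levels of Kcnip1 ranged from 47.6 to 101 CPM in WKY rats and from 52.4 to 97.9 CPM in SHRs, and CVLM levels from 31.7 to 69.7 and from 28.5 to 53.6 CPM.

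Kcnip4 encodes KChIP4, some forms of which slow the inactivation of the channel. It was called lower in SHRs in the NTS alone. At 8 wk the NTS held 155, 132, 176, 191 and 181 CPM in the WKY rats and 139, 136, 160.3, 156 and 109 CPM in the SHRs. At 10 wk the WKY rats had 210.5, 201, 238 and 223 CPM and the SHRs 158, 143, 149, 186 and 176 CPM, with no overlap. That difference was not called at that age in the main analysis. The 12 wk WKY rats had 146, 169 and 160.4 CPM, and the SHRs 125 to 159.7 CPM with a median of 143. At 16 wk they had 145, 154 and 153 CPM, and the SHRs 129 to 169 CPM with a median of 139. At 24 wk they had 172, 165 and 173 CPM, and the SHRs 120.0 to 259 CPM with a median of 149. Apart from 10 wk the groups overlapped, and replicate 6 of the 24 wk SHRs (259 CPM) was above every WKY rat of any age.

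The mean log2 fold change of Kcnip4 in the NTS was -0.20 (SE 0.06), adjusted p = 0.030. Leaving out 1 of 4 rats in turn (WKY replicate 5 of 8 wk, replicate 2 of 12 wk or replicate 3 of 24 wk, or SHR replicate 5 of 8 wk) raised the adjusted p to between 0.051 and 0.061. Leaving out the SHR with 259 CPM, chosen after seeing the data, gave -0.23 (SE 0.05), adjusted p = 0.00089. Without the 5 libraries rich in choroid plexus genes it was -0.20 (SE 0.07), adjusted p = 0.10. Within the number-1 libraries, a mean over ages without 10 wk, it was -0.14 (SE 0.06), adjusted p = 0.14. With the number as a term it was -0.18 (SE 0.05), adjusted p = 0.015. In the CVLM the fold change was -0.02 (SE 0.04, adjusted p = 0.87) and in the RVLM 0.07 (SE 0.06, adjusted p = 0.61). At 10 wk in the CVLM the SHRs (173 to 189 CPM) were all above the WKY rats (154 to 169 CPM), a difference not called at that age. CVLM levels lay between 104 and 189 CPM over all ages and RVLM levels between 70.2 and 132 CPM over both strains.

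Kcnd3 encodes the pore subunit of the set that could be measured, and it was called lower in SHRs in the NTS. At 8 wk the WKY rats had 15.3, 20.4, 28.3, 30.1 and 16.3 CPM and the SHRs 8.75, 12.4, 11.8, 10.7 and 9.61 CPM, with no overlap. At 10 wk the NTS levels were 15.9, 17.2, 20.7 and 21.0 CPM against 12.6, 17.3, 19.9, 17.2 and 18.6 CPM. WKY rats at 12 wk had 19.3, 16.6 and 19.5 CPM, and SHRs 7.98 to 21.4 CPM with a median of 12.0. From 10 wk on the NTS groups of Kcnd3 overlapped. WKY rats at 16 wk had 12.9, 18.1 and 19.1 CPM, and SHRs 11.1 to 16.8 CPM with a median of 12.9. WKY rats at 24 wk had 21.1, 17.8 and 13.2 CPM, and SHRs 9.33 to 17.2 CPM with a median of 12.8. The SHR median was below or equal to the lowest WKY rat at 8, 12, 16 and 24 wk, and 10 wk was the exception.

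Averaged over ages, the log2 fold change of Kcnd3 in the NTS was -0.47 (SE 0.10), adjusted p = 0.00068. The call held in all 28 fits that left out 1 rat of a group of 5 or fewer, with adjusted p from 0.00031 to 0.0021, and without the 5 libraries rich in choroid plexus genes (-0.52, adjusted p = 0.0025). In the CVLM it was -0.26 (SE 0.10, adjusted p = 0.073), with levels of 7.21 to 14.3 CPM in WKY rats and 4.88 to 13.9 CPM in SHRs, and leaving out SHR replicate 2 of 8 wk brought the adjusted p to 0.047. In the RVLM it was -0.19 (SE 0.11, adjusted p = 0.33), with levels of 6.82 to 16.9 and 5.28 to 17.9 CPM. At 8 wk alone in the NTS the fold change was -1.09 (SE 0.21), adjusted p = 0.00062. The WKY rats of 8 wk with 28.3 and 30.1 CPM were number-2 libraries, as was the one with 16.3 CPM, and all SHRs of that age were number 1. With the number as a term the 8 wk difference was -0.69 (adjusted p = 0.066), and in the number-1 libraries alone, with 2 WKY rats, it was -0.76 (adjusted p = 0.078).

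Dpp6 and Dpp10, the accessory subunits that speed gating, were not called in any region. Dpp6 averaged 333 ± 33.0 CPM (SD, n = 18) in WKY rats and 342 ± 41.6 CPM (n = 28) in SHRs in the NTS, 332 ± 34.3 and 329 ± 38.9 CPM in the CVLM, and 294 ± 37.9 and 307 ± 48.7 CPM in the RVLM. Its log2 fold changes were 0.04, -0.02 and 0.05, and their 95% intervals ran from -0.06 to 0.14 in the NTS, from -0.11 to 0.08 in the CVLM and from -0.08 to 0.17 in the RVLM. Dpp10 averaged 39.0 ± 5.53 and 40.3 ± 6.94 CPM in the NTS and 33.1 ± 6.83 and 33.4 ± 5.82 CPM in the CVLM. In the RVLM it averaged 24.7 ± 4.51 CPM in WKY rats and 28.8 ± 4.62 CPM in SHRs, a log2 fold change of 0.21 (SE 0.08, adjusted p = 0.066). DESeq2 called that difference (0.21, adjusted p = 0.038), and edgeR did so without WKY replicate 3, 4 or 5 of 8 wk (adjusted p = 0.033, 0.042 and 0.047), so it lay at the threshold.

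**Figure D3:**
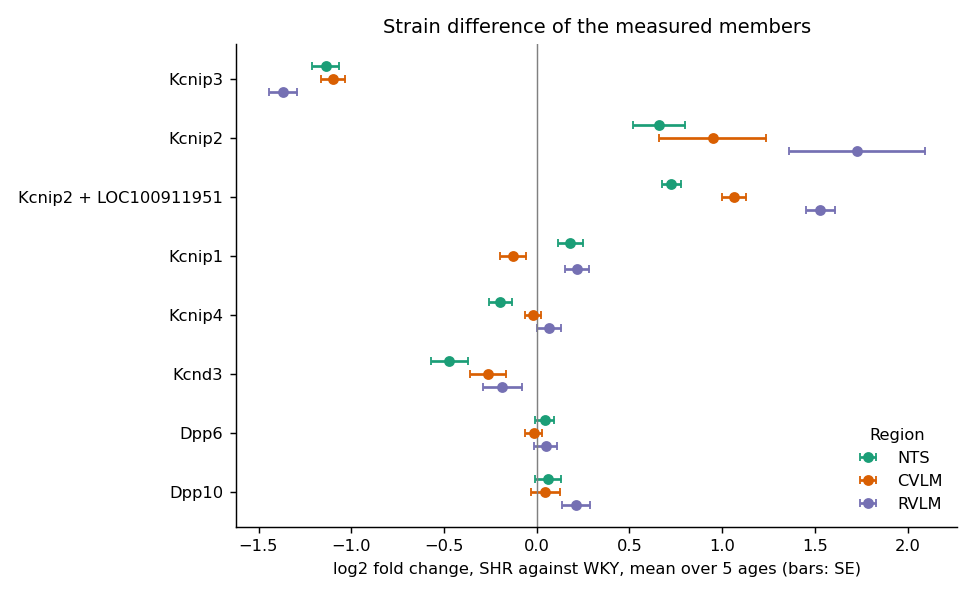
Log2 fold change between SHRs and WKY rats, averaged over 5 ages (horizontal axis), for each measured member (vertical axis) in the NTS, CVLM and RVLM, with bars for the SE. Kcnip3 lies at -1.37 to -1.10, the sum of Kcnip2 and LOC100911951 at 0.73 to 1.53, the Kcnip2 row at 0.66 to 1.73, and the 5 other members within 0.5 of 0.

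Among the 5 members whose strain difference did not choose the set, 2 of 5 were called in the NTS, where 11.2% of all genes were called (5.66% higher and 5.51% lower in SHRs). In the CVLM 0 of 5 were called against 12.3% of all genes (5.28% higher, 7.0% lower), with 1 member, Kcnd3, at an unadjusted p under 0.05 and 0 called by DESeq2. In the RVLM 1 of 5 was called against 10.8% (5.84% higher, 4.98% lower).

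At single ages edgeR called 1 of 75 tests of these 5 members, Kcnd3 at 8 wk in the NTS, and DESeq2 called 2, while 10 had an unadjusted p under 0.05. Without SHR replicate 6 of 24 wk, Kcnip4 at 10 wk in the NTS (adjusted p = 0.027) and Kcnd3 at 8 wk in the RVLM (adjusted p = 0.037) were called as well, and without the libraries rich in choroid plexus genes so was Kcnip4 at 8 wk in the CVLM (-0.27, adjusted p = 0.043). The share of all genes called, in order of age, was 5.79%, 4.44%, 3.10%, 1.73% and 2.46% in the NTS, 7.64%, 3.18%, 2.62%, 2.27% and 7.13% in the CVLM, and 9.78%, 2.30%, 1.70%, 1.65% and 2.24% in the RVLM. The number of WKY rats fell to 3 from 12 wk on, which limits what a single age can show.

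**Figure D4:**
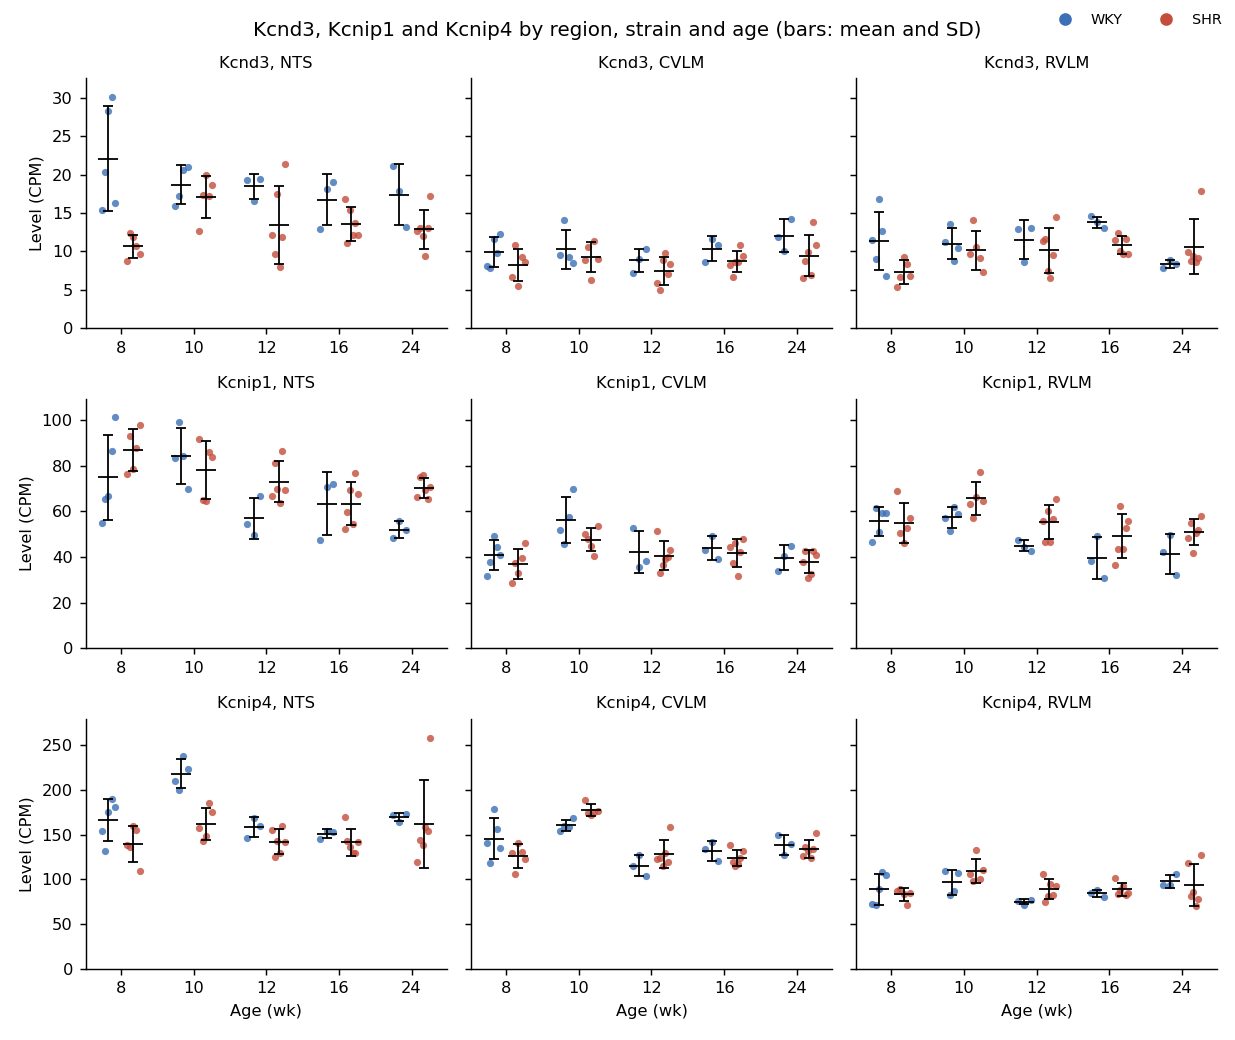
Levels in CPM (vertical axes) of Kcnd3, Kcnip1 and Kcnip4 against age in wk (horizontal axes) in the NTS, CVLM and RVLM, 1 point per rat, with bars for the mean and SD of each group. At 8 wk in the NTS all SHR points of Kcnd3 lie below all WKY points, and most other groups overlap.

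The regions differed in the level of most members, a comparison within rats that the choice of genes did not use. Kcnip3 was lowest in the NTS, intermediate in the CVLM and highest in the RVLM in both strains. Its mean over ages was 25.0 ± 3.79, 35.9 ± 5.99 and 51.1 ± 9.49 CPM (SD, n = 18) in the WKY rats and 11.3 ± 2.21, 16.6 ± 2.62 and 19.8 ± 3.20 CPM (n = 28) in the SHRs. The log2 difference of NTS minus RVLM was -1.03 (SE 0.08, adjusted p = 4.2e-20) in WKY rats and -0.81 (SE 0.06, adjusted p = 2.6e-19) in SHRs. The neighbouring steps were called as well, with CVLM minus RVLM at -0.53 (adjusted p = 1.6e-08) in WKY rats and -0.26 (adjusted p = 0.00040) in SHRs.

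The sum of Kcnip2 and LOC100911951 had the opposite order. It averaged 27.9 ± 3.35, 16.2 ± 4.07 and 9.39 ± 2.57 CPM in the NTS, CVLM and RVLM of the WKY rats and 45.4 ± 4.87, 32.8 ± 3.52 and 27.3 ± 3.87 CPM in those of the SHRs. NTS minus RVLM was 1.56 on the log2 scale (SE 0.07, adjusted p = 2.2e-32) in WKY rats and 0.75 (SE 0.05, adjusted p = 7.6e-22) in SHRs. The Kcnip2 row alone gave 1.80 (SE 0.32) and 0.81 (SE 0.23) for the same comparison, adjusted p = 1.4e-06 and 0.0019.

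Kcnip4 and Dpp10 also fell from the NTS through the CVLM to the RVLM. Kcnip4 averaged 175 ± 28.5, 141 ± 20.1 and 89.2 ± 13.4 CPM in the WKY rats, and Dpp10 39.0 ± 5.53, 33.1 ± 6.83 and 24.7 ± 4.51 CPM. Kcnip1 was highest in the NTS, at 68.3 ± 16.9 CPM in WKY rats, and lower in the CVLM (44.8 ± 9.30) and RVLM (49.2 ± 9.56). Its CVLM and RVLM levels were not called apart in WKY rats (adjusted p = 0.29), whereas in SHRs the CVLM was lower than the RVLM by a log2 difference of -0.43 (SE 0.05, adjusted p = 5.8e-11). Kcnd3 was highest in the NTS at 19.0 ± 4.44 CPM in WKY rats, and its CVLM and RVLM levels of 10.2 ± 2.04 and 11.2 ± 2.76 CPM were not called apart in either strain (adjusted p = 0.45 and 0.074). Dpp6 varied least, with a log2 difference of NTS minus RVLM of 0.17 in each strain (adjusted p = 0.0017 in WKY rats and 0.00011 in SHRs).

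**Figure D5:**
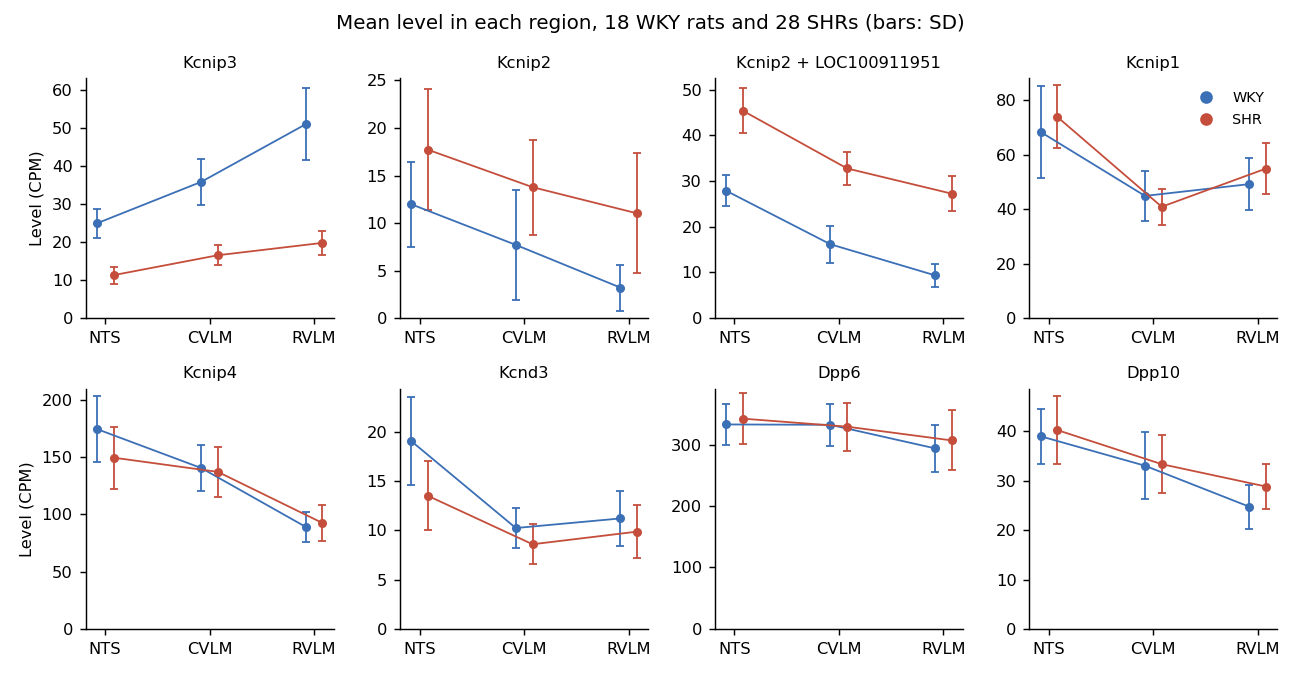
Mean level in CPM (vertical axes) of each measured member and of the sum of Kcnip2 and LOC100911951 in the NTS, CVLM and RVLM (horizontal axes), for 18 WKY rats and 28 SHRs, with bars for the SD. Kcnip3 rises from the NTS to the RVLM, and the sum, Kcnip4 and Dpp10 fall.

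Between the NTS and RVLM, 7 of 7 members were called in each strain, where 62.2% of all genes were called in WKY rats and 64.4% in SHRs. Between the NTS and CVLM it was 5 of 7 in each strain, all but Dpp6 and Kcnip2, against 52.5% and 55.7% of all genes. Between the CVLM and RVLM it was 5 of 7 in WKY rats (not Kcnd3 or Kcnip1) and 5 of 7 in SHRs (not Kcnd3 or Kcnip2), against 39.0% and 44.8%. Kcnip2 stands for its row alone in these counts. By edgeR the sum of Kcnip2 and LOC100911951 was called for NTS minus CVLM, at 0.82 in WKY rats and 0.46 in SHRs (adjusted p = 2.7e-17 and 4.8e-12). For CVLM minus RVLM edgeR called the sum at 0.74 in WKY rats and 0.29 in SHRs (adjusted p = 1.3e-14 and 3.3e-06). A large share of all genes thus differed between regions, and cell types did too. From the NTS to the RVLM in WKY rats, 6 of 7 neuron markers, 6 of 6 oligodendrocyte markers and 3 of 3 motor neuron markers were called higher in the RVLM, and 1 neuron marker was called lower. In the same comparison 5 of 5 microglial, 3 of 3 ependymal, 3 of 4 choroid plexus and 3 of 6 astrocyte markers were called higher in the NTS, as were 4 of 6 markers of neurons of these regions. Called lower in the NTS were 1 choroid plexus marker, 1 astrocyte marker and 1 marker of neurons of these regions. So were 3 of 3 endothelial markers. The part of this mixture in the order of the members was not tested.

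The size of the strain difference was compared between regions in 1 fit of all libraries with the rat as a block. The strain differences of Kcnip3 and Kcnip2 chose the set, so their values here are a description with no test. For Kcnip3 the strain difference in the NTS minus that in the RVLM was 0.22 (SE 0.10), NTS minus CVLM was -0.06 (SE 0.10) and CVLM minus RVLM was 0.27 (SE 0.10), all on the log2 scale. For the sum of Kcnip2 and LOC100911951 the same values were -0.81 (SE 0.09), -0.36 (SE 0.09) and -0.45 (SE 0.09). The Kcnip2 row alone gave -0.99 (SE 0.40), -0.25 (SE 0.38) and -0.74 (SE 0.41), and adding the rows was a step chosen after seeing the data.

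Of the 5 other members, 1 was called for NTS minus RVLM, where 1.82% of all genes were called. It was Kcnip4, at -0.27 (SE 0.07, adjusted p = 0.012), its NTS being lower and its RVLM not lower in SHRs. That call was lost without the rat as a block (-0.26, adjusted p = 0.086). It was also lost in the number-1 libraries alone, which hold no 10 wk rats (-0.23, adjusted p = 0.17). For NTS minus CVLM 0 of 5 were called by edgeR against 0.449% of all genes, and for CVLM minus RVLM 0 of 5 against 0.320%, with 2 and 1 members at an unadjusted p under 0.05. By limma voom with the rat as a random effect the counts were 0 and 1. Kcnip1 lay nearest, at -0.34 (SE 0.09, adjusted p = 0.053) for CVLM minus RVLM, and limma voom called it.

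Age was tested in 2 ways, as a change of the strain difference and within each strain. By edgeR the strain difference varied with age for 0 of the same 5 members in each region, where 0.0145%, 0.0224% and 0.00746% of all genes were called in the NTS, CVLM and RVLM. In 15 tests of these members, 2 had an unadjusted p under 0.05 (Kcnd3 in the NTS and Kcnip4 in the CVLM), and DESeq2 called 0.

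Within WKY rats, 1 of 7 members varied with age in the NTS (Kcnip1, adjusted p = 0.012) against 12.5% of all genes, 1 in the CVLM (Kcnip4, adjusted p = 0.019) against 22.2%, and 1 in the RVLM (Kcnip1, adjusted p = 0.044) against 6.79%. Within SHRs it was 1 in the NTS (Kcnip2, adjusted p = 0.032) against 18.7%, 1 in the CVLM (Kcnip4, adjusted p = 0.00014) against 20%, and 0 in the RVLM against 14.1%, where 3 had an unadjusted p under 0.05 and DESeq2 called 0. Over both strains and 3 regions edgeR thus called 5 of 42 tests and DESeq2 called 8. All 5 calls were lost with the library-name number as a term (adjusted p = 0.40 to 0.84) and in the number-1 libraries alone (0.60 to 0.98). The number-1 libraries hold no 10 wk rats and 2 WKY rats of 8 wk, so that fit cannot show a change at 10 wk. The levels of Kcnip4 are given here by library-name number. In the CVLM of SHRs Kcnip4 was 130.2, 106, 141, 130.5 and 123 CPM at 8 wk, all number 1, and 189, 174, 173, 175 and 177 CPM at 10 wk, all number 2. At 12 wk the SHR with the number 2 had 159 CPM, above the other 5, whose highest was 129.6 CPM. In WKY rats of 8 wk, the number-2 rats had 176, 191 and 181 CPM in the NTS against 155 and 132 in the number-1 rats. The RVLM of the same number-2 rats had 89.3, 108 and 105 CPM against 72.5 and 71.0. At 24 wk the SHR with the number 2 was above the other 5 in all 3 regions, at 259, 152 and 127 CPM in the NTS, CVLM and RVLM. The numbers did not separate the levels everywhere. In the CVLM of these WKY rats the number-2 levels were 179, 156 and 135 CPM and the number-1 levels 140.5 and 118 CPM, which overlapped. The 12 wk SHR with the number 2 lay inside the range of the other 5 in the NTS, at 142 CPM, and in the RVLM, at 92.4 CPM. The part of the number in these levels was not tested.

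Beside the Kcnip2 call with age in the NTS of SHRs stand the values of the sum. The Kcnip2 row was at 21.4 to 31.0 CPM at 10 wk against 11.7 to 20.8 CPM at 8 wk, while the sum was at 42.3 to 48.6 CPM and 43.2 to 56.8 CPM, and the sum was not called (adjusted p = 0.34). The sum did vary with age in WKY rats of the CVLM (adjusted p = 0.0057) and RVLM (adjusted p = 0.027), and it was not fitted with the number as a term. Kcnip3 was not called with age in WKY rats (adjusted p = 0.27, 0.080 and 0.60) or SHRs (0.37, 0.85 and 0.90) in the NTS, CVLM and RVLM.

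The list of other A-type and Kv4-associated genes (pore, beta and anchoring subunits and partner calcium channels, 10 of 11 tested) had 0 of 10 called by edgeR in each region, with 1 at an unadjusted p under 0.05 in each, where 11.2%, 12.3% and 10.8% of all genes were called in the NTS, CVLM and RVLM. DESeq2 called 0, 0 and 1 of them in the NTS, CVLM and RVLM. Their median log2 fold changes were 0.07, 0.08 and 0.04 against 0.01, 0.00 and 0.01 for all genes tested. Kcna4, the A-type pore of the Kv1 family, had the value nearest the threshold, 0.55 (SE 0.19, adjusted p = 0.057) in the RVLM. In the NTS its value went the other way, at -0.17 (SE 0.10, edgeR adjusted p = 0.32).

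Of the 6 other neuronal calcium sensor genes, relatives of the KChIPs, Ncald (neurocalcin delta) was called higher in SHRs in all 3 regions. Its log2 fold change was 0.37 (SE 0.04, adjusted p = 9.1e-09) in the NTS, 0.33 (SE 0.04, adjusted p = 9.1e-08) in the CVLM and 0.54 (SE 0.09, adjusted p = 3.1e-05) in the RVLM. Hpcal4 was called lower in the NTS (-0.24, SE 0.07, adjusted p = 0.021) and Hpca, hippocalcin, higher in the RVLM (0.52, SE 0.16, adjusted p = 0.025). That made 2 of 6 called in the NTS, 1 of 6 in the CVLM and 2 of 6 in the RVLM, beside 11.2%, 12.3% and 10.8% of all genes, and with so few genes nothing is read from the counts. The list medians were 0.05, -0.03 and 0.18.

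The list of partners and reported targets of KChIP3 as DREAM or calsenilin had 1 of 7 called in the NTS, 0 of 7 in the CVLM and 0 of 7 in the RVLM, with 1 at an unadjusted p under 0.05 in each region and DESeq2 calling 1, 0 and 0. The shares of all genes called were again 11.2%, 12.3% and 10.8%, and nothing is read from a list of 7. The called gene was Pdyn, which encodes prodynorphin, lower in SHRs in the NTS at -0.27 (SE 0.09, adjusted p = 0.045). Its values of -0.29 (SE 0.15, adjusted p = 0.26) for the CVLM and 0.35 (SE 0.26, adjusted p = 0.46) for the RVLM were not called. Fos, an immediate early gene, had fold changes between 0.16 and 0.26 and was not called. The medians of the list were -0.07, -0.01 and 0.11.

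Over the 30 group means of region, strain and age, the genes whose log2 CPM followed that of Kcnip3 most closely among 13116 genes were Grifin (Pearson's r = 0.97), Rhbdf1 (r = 0.94) and Plod1 (r = 0.94). For the Kcnip2 row they were Mei4 (r = 0.82), Bbs4 (r = 0.81) and Polr3gl (r = 0.80), and for the sum Hes6 (r = 0.94), Cbs (r = 0.93) and Bbs4 (r = 0.92). The groups share rats and libraries, and these values describe likeness of pattern only.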

How the data were processed

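Total RNA from frozen brainstem punches was sequenced, and the authors aligned reads to the rn6 rat assembly and deposited 1 table of RSEM expected counts per region, with estimated counts per gene that need not be whole. The deposited counts are named raw counts, and 5.02%, 4.95% and 4.88% of their values in the NTS, CVLM and RVLM were not whole. Whether a batch correction that the study's methods name was applied to them is not otherwise given in the sources used here. The study's methods give default settings for the alignment, and the strandedness of the libraries is not given in the sources used here.

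Expected counts were rounded to whole numbers and genes kept if their highest DESeq2 rlog value in a region reached 3.5, which left 13793, 13408 and 13411 genes in the NTS, CVLM and RVLM. Strain and age were fitted in each region with 1 coefficient per group of strain and age (edgeR 4.0.16, limma 3.58.1 and DESeq2 1.42.0 in R 4.3.3), with TMM scaling, robust quasi-likelihood dispersion and Benjamini-Hochberg adjustment over all genes. The strain difference was averaged over ages with equal weight. Regions were compared in 1 fit with the rat as a block, since the library names pair the 3 libraries of a rat. Within rats, the median correlation of the libraries' deviations from the group means was 0.23 for NTS and CVLM, 0.18 for NTS and RVLM and 0.079 for CVLM and RVLM (46 rats each). Rats of different strains that share only a replicate number had medians of 0.22, 0.18 and 0.066 in the NTS, CVLM and RVLM. The correlations alone therefore do not show pairing by rat. Groups came from the sample titles, and replicates are separate rats. Scripts were tested on simulated data. Within groups, no 2 libraries agreed to sampling noise (lowest chi-square per gene 5.08 in 270 pairs, where 1 would be expected). Depth was 5904570 to 17889406 counts per library, and the spread between rats holds both counting error and biological variation.

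The members, the gene lists and the tests were chosen with earlier results of these data known. Named genes were all members, the members of 3 related lists that were called in any region, and the 3 genes most like Kcnip2 and Kcnip3 over 30 group means. Genes named outside that rule (Kcna4, Fos and the genes most like the sum) were chosen after their values were seen. Alternatives were the replicate number as a block, the library-name number as a term, the number-1 libraries alone, DESeq2, DESeq2's size factors (RLE), no filter, limma voom, no rat block, leaving out the 2 libraries with conflicting age labels, and leaving out each rat of a group of 5 or fewer. Adding the Kcnip2 and LOC100911951 counts, leaving out SHR replicate 6 of 24 wk and leaving out the libraries rich in choroid plexus genes were chosen after seeing the data.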

Additional observations from a re-analysis of the deposited data

Results flagged for a closer look

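In groups of 4 to 10 rats, a value that stood apart from the rest by Dixon's criterion was found in 10 of 168 groups of the members, where 8.4 are expected by chance at 1 in 20. Replicate 6 of the 24 wk SHRs held 3 of them. Its RVLM had 17.9 CPM of Kcnd3 against 9.87 in the next rat and 30.2 CPM of the Kcnip2 row against 8.35, and its NTS had 259 CPM of Kcnip4 against 158. That rat's library-name number was 2, unlike the other 24 wk SHRs, and the part of the number in these values was not tested.

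The other values stood apart upward as well. Kcnip3 was 20.1 CPM in replicate 1 of the 8 wk SHRs in the CVLM (next 16.4), 16.1 CPM in replicate 2 of the 12 wk SHRs in the NTS (next 11.5) and 25.5 CPM in replicate 2 of the 10 wk WKY rats in the NTS (next 23.0). Each of these Kcnip3 values was still on its own strain's side of the gap at its age. Kcnip4 was 189 CPM in replicate 1 of the 10 wk SHRs in the CVLM (next 177), 159 CPM in replicate 6 of the 12 wk SHRs in the CVLM (next 129.6) and 169 CPM in replicate 1 of the 16 wk SHRs in the NTS (next 144). The sum of Kcnip2 and LOC100911951 was 47.9 CPM in the same 16 wk SHR's NTS (next 42.1).

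The strain difference itself differed between regions, by a test of that difference, for Kcnip4 between the NTS and RVLM (log2 -0.27, edgeR adjusted p = 0.012).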

How the results depend on the processing

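Kcnip3 stayed lower and Kcnip2 higher in SHRs in every region under every alternative run. These runs included 28 fits that each left out 1 rat of the smaller groups. Nothing is read from this, because these directions chose the set and the alternatives use the same libraries. Values near 0 changed sign. Without the number-2 libraries, the mean strain difference of Dpp6 in the NTS was -0.012, that of Dpp10 in the CVLM -0.0030 and the NTS minus RVLM difference of Kcnip1 0.11. That of Dpp6 in the CVLM was 0.0011 without the filter and 0.0085 without the libraries rich in choroid plexus genes, and with the rows added Dpp6 between the NTS and CVLM of WKY rats was -0.0096. With 1 rat left out, the mean difference in the CVLM ran from -0.0068 to 0.094 for Dpp10, from -0.045 to 0.014 for Dpp6 and from -0.034 to 0.0080 for Kcnip4.

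Calls at single ages, 1 in the main analysis, were 0 in the number-1 libraries, 2 by DESeq2, 2 without the libraries rich in choroid plexus genes, 3 without SHR replicate 6 of 24 wk and 1 to 3 with 1 rat left out. Calls of the mean strain difference were 1 to 4 with 1 rat left out, against 3. Calls with age, 5, were 0 with the number as a term, 0 in the number-1 libraries, 8 by DESeq2 and 7 without SHR replicate 6 of 24 wk. Fits of the number-1 libraries, here and below, hold no 10 wk rats. Calls of a strain difference between regions, 1, were 0 without the rat as a block (no replicate block), 0 in the number-1 libraries, 2 by limma voom, 2 with RLE and 2 without the libraries of conflicting age. The number of all genes called for the mean strain difference fell from 1646 to 1014 in the CVLM and from 1451 to 956 in the RVLM in the number-1 libraries. For strain differences between regions it fell from 255 to 166 without the rat block and 123 in the number-1 libraries for NTS minus RVLM, from 63 to 32 and 32 for NTS minus CVLM, and from 45 to 20 in the number-1 libraries for CVLM minus RVLM.

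Rats of the 2 strains that share a replicate number are not paired by the labels. Their deviations correlated with medians of 0.22, 0.18 and 0.066 in the NTS, CVLM and RVLM, above 0.1 in 12, 13 and 7 of 18 pairs. With the replicate block, the mean strain difference of Dpp10 in the NTS was -0.011, that of Kcnip1 in the RVLM 0.19 (adjusted p = 0.20), that of Kcnd3 in the CVLM -0.38 (called), and 965 genes were called in the RVLM. The counts of Kcnd3 ran from 45 to 427 per library, which limits its precision.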
